A study of Mus musculus with 12 samples.

Results

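Brown and inguinal white adipose tissue were compared within mice that lack the mitochondrial calcium uniporter gene Mcu in adipose tissue. The members were the 3 brown fat (BAT) and 3 inguinal white fat (WAT) libraries labelled AKO, 6 of the 12 libraries in the series, and every gene with enough counts in them. AKO stands for an adipose-specific Mcu knockout in mice whose Mcu alleles carry loxP sites (Mcu fl/fl), and the remaining 6 libraries, 3 of each depot, came from Mcu fl/fl control mice. All groups were fed a high-fat diet. Poly(A) RNA of whole tissue was sequenced, so adipocytes and the other cells of each depot were read together. Neither the driver of the recombinase nor the floxed exon, sex or age is stated in the labels. Nor do they state that each library comes from its own animal, so a p-value here covers the variation among libraries of a group, part of which may be technical.

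Brown adipocytes hold many small lipid droplets and dense mitochondria, and burn fatty acids to make heat through UCP1, a carrier that lets protons back into the mitochondrial matrix without making ATP. White adipocytes store triglyceride in a large droplet and secrete leptin, adiponectin and other hormones. The depots also arise at different places in the embryo, and adult fat keeps a record of that position in its Hox and other developmental genes. MCU is the pore through which calcium enters the mitochondrial matrix, where it stimulates several dehydrogenases of the tricarboxylic acid cycle. The comparison shows which depot differences are present in tissue where this gene has been deleted in fat cells.

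Mcu itself (ENSMUSG00000009647, chromosome 10, 59446984 to 59616692, minus strand, mm10) was at 9.88, 15.2 and 8.61 CPM (depth-scaled counts, with TMM factors between libraries) in BAT AKO and at 10, 12.7 and 10.6 CPM in WAT AKO. These ranges overlapped, and the mean was 11.2 ± 3.49 against 11.1 ± 1.38 CPM (SD, n = 3 per depot). The log2 difference, BAT over WAT, was 0.01 with an SE of 0.23 and an adjusted p of 0.961 (edgeR quasi-likelihood test, Benjamini-Hochberg adjustment over all genes tested). With factors fitted to all 12 libraries, the AKO libraries held 8.29 to 14.6 CPM in BAT and 10.1 to 12.5 CPM in WAT, below every control library of the same depot (24 to 28.8 CPM in BAT, 18 to 18.8 CPM in WAT). Reads from exons outside the deleted part and from cells that are not adipocytes count towards these levels. The highest Mcu value of each depot was in BAT AKO 2 and WAT AKO 2, which carried skeletal muscle transcripts (described next). Without both of these libraries the log2 difference was -0.16 (adjusted p = 0.489, same test).

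The libraries of the depots differed in makeup before any gene was tested. The total count was 16096709 to 18427598 per AKO library, and it does not limit the comparison of abundant genes. Transcripts of the mitochondrial genome made up 17.2% ± 0.839 of counts in BAT and 3.22% ± 0.493 in WAT, and 248 to 264 genes held the upper 50% of all counts in BAT against 608 to 825 in WAT. In an exact two-sided permutation test both differences reached p = 0.1, the smallest that 3 against 3 libraries allow. WAT AKO 2 and BAT AKO 2 carried skeletal muscle transcripts (2.88% and 2.23% of counts from 22 muscle genes, against at most 0.0804% in the other AKO libraries). All 3 WAT AKO libraries carried lymphocyte transcripts: 16 B cell genes summed to 0.2478% to 0.4805% of counts in WAT and 0.0159% to 0.0206% in BAT, and 24 T and NK cell genes to 0.0632% to 0.121% and 0.00117% to 0.00177%. In whole tissue, fewer cells of a type and less RNA per cell cannot be told apart.

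Brown and white fat without adipose Mcu differed in most expressed genes. Of 15671 genes tested, 4510 (28.8%) were higher in BAT and 4781 (30.5%) higher in WAT at an adjusted p under 0.05, together 9291 (59.3%). With at least a 2-fold difference as well, 2170 (13.8%) were higher in BAT and 2965 (18.9%) in WAT, and the 2 groups of libraries did not overlap in 10580 genes (67.5%). The split between the directions moved with the scaling of the libraries. BAT-higher genes were 48.5% of calls with TMM factors, 41.6% with upper-quartile factors, 19.1% with library totals alone and 19.4% to 19.5% on the FPKM values, which are also relative to totals. Library totals moved the median of all genes from -0.02 to -0.60 on the log2 scale, a shift of -0.58, so the log2 differences given here stand relative to the median gene, and a BAT-higher difference under 0.58 has no direction that holds under both scalings. Counts of list members called with library totals are given beside those with TMM factors where they differ by over 1.5 times or the share of BAT-higher calls moved by over 10 percentage points. Every count of list members called stands against the 28.8% and 30.5% of all genes tested. A list with shares near these says little about its members as a set.

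The heat-producing genes were far higher in BAT. Of 35 listed thermogenic genes 31 passed the filter on low counts, and the 31 were called higher in BAT, with a median log2 difference of 4.66 against -0.02 over all genes tested. Ucp1 (chromosome 8, 83290352 to 83298452, plus strand) was at 4562, 3941 and 5289 CPM in BAT AKO and at 10.9, 0.454 and 3.98 CPM in WAT AKO. The lowest BAT library was far above the highest WAT library, with a log2 difference of 9.80 (SE 1.16, adjusted p = 0.000278), and the WAT libraries differed among themselves by more than the BAT libraries did.

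Cidea, a lipid droplet protein typical of brown adipocytes, was at 2597, 2313 and 2445 CPM in BAT and at 19.1, 7.17 and 16.6 CPM in WAT (log2 difference 7.42, SE 0.42, adjusted p = 1.04e-05). Ppargc1a, the coactivator PGC-1alpha that drives mitochondrial genes, was at 41.8, 34.0 and 57.1 against 3.39, 5.86 and 3.35 CPM (log2 difference 3.40). Both genes separated the depots without overlap. Pparg, the nuclear receptor required for fat cell formation in either depot, was higher in BAT by a smaller margin (384, 339 and 438 against 114, 144 and 121 CPM, log2 difference 1.62, adjusted p = 6.78e-05). Other thermogenic genes with small p-values encode proteins of lipid and coenzyme handling. Slc27a2, a very long chain acyl-CoA synthetase, averaged 269 ± 1.77 CPM in BAT and 0.424 ± 0.449 in WAT. Pank1, which makes the precursor of coenzyme A, averaged 406 ± 70.8 and 4.13 ± 0.155, and the acyl-CoA thioesterase Acot11 199 ± 19.7 and 2.55 ± 0.411. The potassium channel Kcnk3 (log2 difference 3.46), the mitochondrial protein Letmd1 (4.37), the nerve growth signal S100b (4.93), the respiratory subunit Cox8b (5.47) and the fatty acid elongase Elovl3 (7.51) were higher in BAT as well. Kcnk3 and Acot11 overlap genes on the opposite strand, and no source used here states that counting used the strand.

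**Figure D1:**
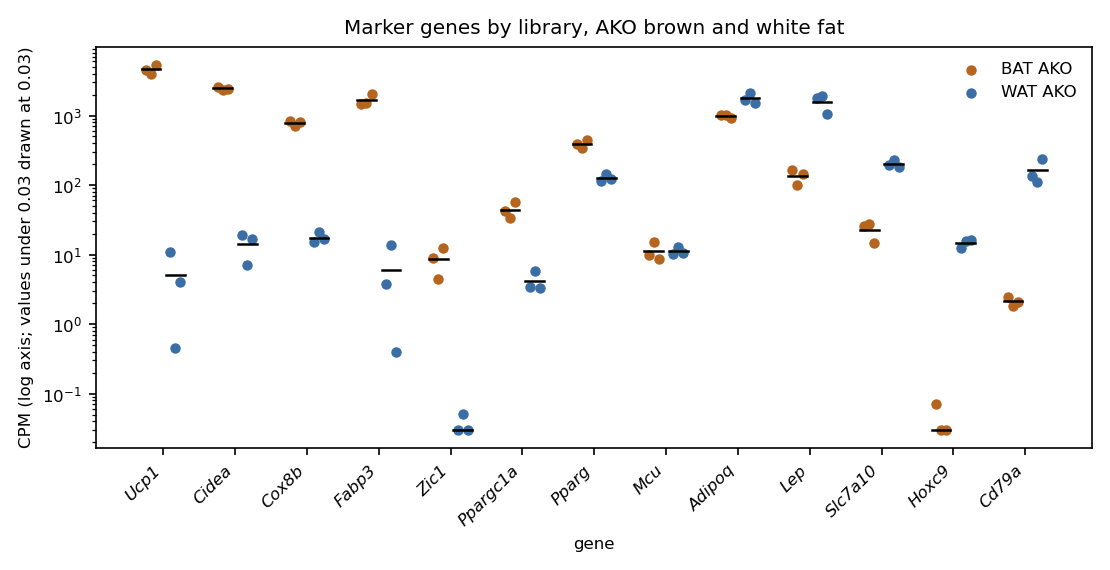
CPM of 13 genes on a log axis in the 3 BAT AKO and 3 WAT AKO libraries, with black bars at the group means. Ucp1, Cidea, Cox8b, Fabp3, Zic1, Ppargc1a and Pparg stand higher in BAT, Mcu overlaps, and Adipoq, Lep, Slc7a10, Hoxc9 and Cd79a stand higher in WAT.

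Zic1, a transcription factor that marks the dorsal origin of brown fat, had 351 counts in the 3 BAT libraries and 1 count in the 3 WAT libraries, a depth-scaled ratio of 570 with a 95% counting interval of 102 to 2.26e+04. Lhx8, also used as a brown fat marker, did not separate the depots: it was at 5.16, 2.76 and 6.37 CPM in BAT and at 4.63, 4.80 and 8.76 in WAT (log2 difference -0.35, adjusted p = 0.446). The labelled tissues therefore carried the fixed brown markers other than Lhx8 at the higher level in BAT. Of the fixed white depot markers, Hoxc8, Hoxc9, Hoxc10 and Slc7a10 were higher in WAT, and Tbx15 was not called (log2 difference -0.70).

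Genes of the respiratory chain were higher in BAT almost without exception. Of 36 nuclear genes of complex I, the entry point for electrons from NADH, 36 were called higher in BAT (median log2 difference 2.40, range 1.35 to 3.23). Ndufv1, the subunit that binds NADH, averaged 1467 ± 108 CPM in BAT and 157 ± 15.4 in WAT, the largest of these differences (log2 3.23). Ndufa10, Ndufs8, Ndufab1, Ndufb6 and Ndufa6 were higher by 3.15, 2.87, 2.73, 2.62 and 2.60 on the log2 scale. Of 40 genes of complexes II to V, 38 were called higher in BAT (median 2.62). Examples are Sdhb of succinate dehydrogenase (1008 ± 40.2 against 107 ± 6.45 CPM), Uqcrc1 and Cyc1 of complex III (log2 differences 3.33 and 3.18), and Cox5b, Cox6a1 and Cox7b of cytochrome c oxidase (2.82, 2.71 and 3.29).

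The 2 exceptions were Atpif1, the inhibitor of the ATP synthase (1.74 ± 0.54 against 2.70 ± 0.375 CPM, adjusted p = 0.0856), and Atp5g1, which encodes a ring subunit of that enzyme. Atpif1 was called higher in WAT in the fit to all 12 libraries (log2 difference -0.71, adjusted p = 0.0485), with library totals (-1.22, adjusted p = 0.0079) and in both FPKM fits (adjusted p 0.00438 and 0.00546). Atp5g1 was at 5.44, 59.1 and 7.56 CPM in BAT and at 24.5, 41.4 and 25.4 CPM in WAT, so its highest value was in the muscle-rich BAT AKO 2. Its log2 difference was -0.34 (adjusted p = 0.743) with all libraries, -2.22 (adjusted p = 0.000843) without BAT AKO 2, and -1.94 (adjusted p = 6.7e-05) without both muscle-rich libraries, opposite in direction to the rest of its list.

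Promoters of these genes were searched for 3 motifs on both strands, in 300-base windows from 250 bases before to 50 bases after the RefSeq start on GRCm38.p6, the assembly also called mm10. The motifs were the palindromic core of NRF1, a factor of nuclear genes for mitochondrial proteins, whose letters are the capitals in the promoters printed next, TNAAGGTCA for the estrogen-related receptors, and for PPAR with RXR the letters AGGTCA repeated with any 1 base between. The last 2 motifs share the letters AGGTCA and can overlap. Of 14489 promoters of 11325 tested genes, 1.86% held the NRF1 letters, with 2.28% among genes higher in BAT, 1.10% among genes higher in WAT and 2.13% among genes not called. The estrogen-related receptor letters were in 0.877% of promoters (1.11%, 0.762% and 0.796%), and the PPAR and RXR letters in 7 promoters. The NRF1 letters were in 4 of 34 promoters (11.8%) of complexes II to V, 1 of 34 (2.94%) of complex I, 1 of 24 (4.17%) of fatty acid oxidation, 3 of 72 (4.17%) of the mitochondrial ribosome, 1 of 38 (2.63%) of the thermogenic list and 0 of 32 of the tricarboxylic acid cycle. The estrogen-related receptor letters were in 2 (5.88%) of complexes II to V, 1 (2.94%) of complex I and 0 of the other 4 lists. A match is a description of the letters and does not show that a factor binds.

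The 4 promoters below belong to the genes with the smallest p among those of the thermogenic, oxidation and respiratory lists that held a motif, and they show where the NRF1 letters, in capitals, lie in 150 bases of each, written 5′ to 3′ on the strand of the gene. Cox6a1 (chr5:115349041-115349190, minus strand) encodes a cytochrome c oxidase subunit, Ppara (chr15:85735626-85735775, plus strand) the fatty acid receptor, Etfdh (chr3:79628816-79628965, minus strand) the enzyme that passes electrons from fat oxidation to ubiquinone, and Atp5k (chr5:108434400-108434549, minus strand) an ATP synthase subunit.
Cox6a1: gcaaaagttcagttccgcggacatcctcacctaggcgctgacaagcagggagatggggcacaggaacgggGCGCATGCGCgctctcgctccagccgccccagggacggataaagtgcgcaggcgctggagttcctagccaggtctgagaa
Ppara: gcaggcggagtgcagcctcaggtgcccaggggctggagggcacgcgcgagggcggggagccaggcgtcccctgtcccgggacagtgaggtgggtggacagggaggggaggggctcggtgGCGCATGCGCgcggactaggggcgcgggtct
Etfdh: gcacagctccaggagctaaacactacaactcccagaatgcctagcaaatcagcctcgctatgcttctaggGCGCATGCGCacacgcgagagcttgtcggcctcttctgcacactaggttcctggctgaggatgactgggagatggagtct
Atp5k: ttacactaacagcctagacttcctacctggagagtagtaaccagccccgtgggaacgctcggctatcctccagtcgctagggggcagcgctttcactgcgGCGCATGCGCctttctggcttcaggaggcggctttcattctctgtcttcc
The letters ended 153, 22, 119 and 41 bases before the start in Cox6a1, Ppara, Etfdh and Atp5k, and the genes were higher in BAT by 2.71, 5.88, 3.56 and 2.43 on the log2 scale. Cox6a1 was at 2746, 2519 and 2642 CPM in BAT and at 393, 399 and 420 CPM in WAT. The distance of the letters from the start did not order the sizes of the differences.

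The mitochondrial genome encodes the remaining subunits of the chain. Of its 15 listed transcripts 14 were tested and the 14 were higher in BAT (median log2 difference 3.35, range 2.47 to 4.29). The most abundant, mt-Co1, was at 80205, 87980 and 83900 CPM in BAT and at 10086, 14149 and 10151 CPM in WAT (log2 difference 2.87, adjusted p = 1.19e-05). The ribosomal RNAs mt-Rnr2 (3456 ± 533 against 177 ± 54.6 CPM) and mt-Rnr1 (2442 ± 623 against 163 ± 57.7 CPM) differed by 4.29 and 3.91 on the log2 scale, more than any of the 12 tested protein-coding transcripts, of which mt-Co3 was highest at 3.73. On the per-length FPKM scale mt-Co2, mt-Co3 and mt-Atp6 stood at 590, 301 and 306 in BAT against 44467 for mt-Co1 and 35110 for mt-Cytb. Reads of mitochondrial genes can match nuclear copies of mitochondrial DNA, so the levels of these genes relative to each other are uncertain. mt-Atp8 was not tested (1.21 ± 0.531 against 0.157 ± 0.0851 CPM).

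The fuel pathways that feed the chain followed the same direction. Of 26 genes of the tricarboxylic acid cycle and pyruvate entry, 23 were higher in BAT and 1 in WAT (median log2 difference 2.64), or 23 and 3 with library totals. Suclg1, a subunit of succinyl-CoA ligase, was at 1488, 1337 and 1499 CPM in BAT and at 102, 106 and 85.2 CPM in WAT (log2 difference 3.88). Idh3b, Idh3g and Dlst, which encode other enzymes of the cycle, were higher in BAT by 3.47, 3.25 and 3.03, and Pdp2, the phosphatase that activates pyruvate dehydrogenase, by 2.39. The member called in the other direction was Pdk3, a kinase that inactivates pyruvate dehydrogenase (2.28 ± 0.323 against 9.95 ± 0.604 CPM, log2 difference -2.12, adjusted p = 5.14e-05). Pdp2 and Pdk3 thus differed in opposite directions, and whether other regulators of pyruvate dehydrogenase follow them is not reported here.

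Of 27 genes of fatty acid oxidation, 26 were higher in BAT and 1 in WAT (median 2.53). Acaa2, the last enzyme of the mitochondrial spiral, averaged 3398 ± 136 CPM in BAT and 156 ± 4.47 in WAT (log2 difference 4.45), and the subunits of the trifunctional protein, Hadha and Hadhb, differed by 3.69 and 4.30. The carnitine carrier Slc25a20 and the acyl-CoA dehydrogenases Acadl and Acadvl were higher in BAT by 3.63, 3.52 and 4.08. Acadvl overlaps a gene on the opposite strand. The member higher in WAT was Cpt1a, the liver-type enzyme that loads fatty acids onto carnitine (51.4 ± 0.279 against 91.1 ± 7.99 CPM, log2 difference -0.83, adjusted p = 0.000227).

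**Figure D2:**
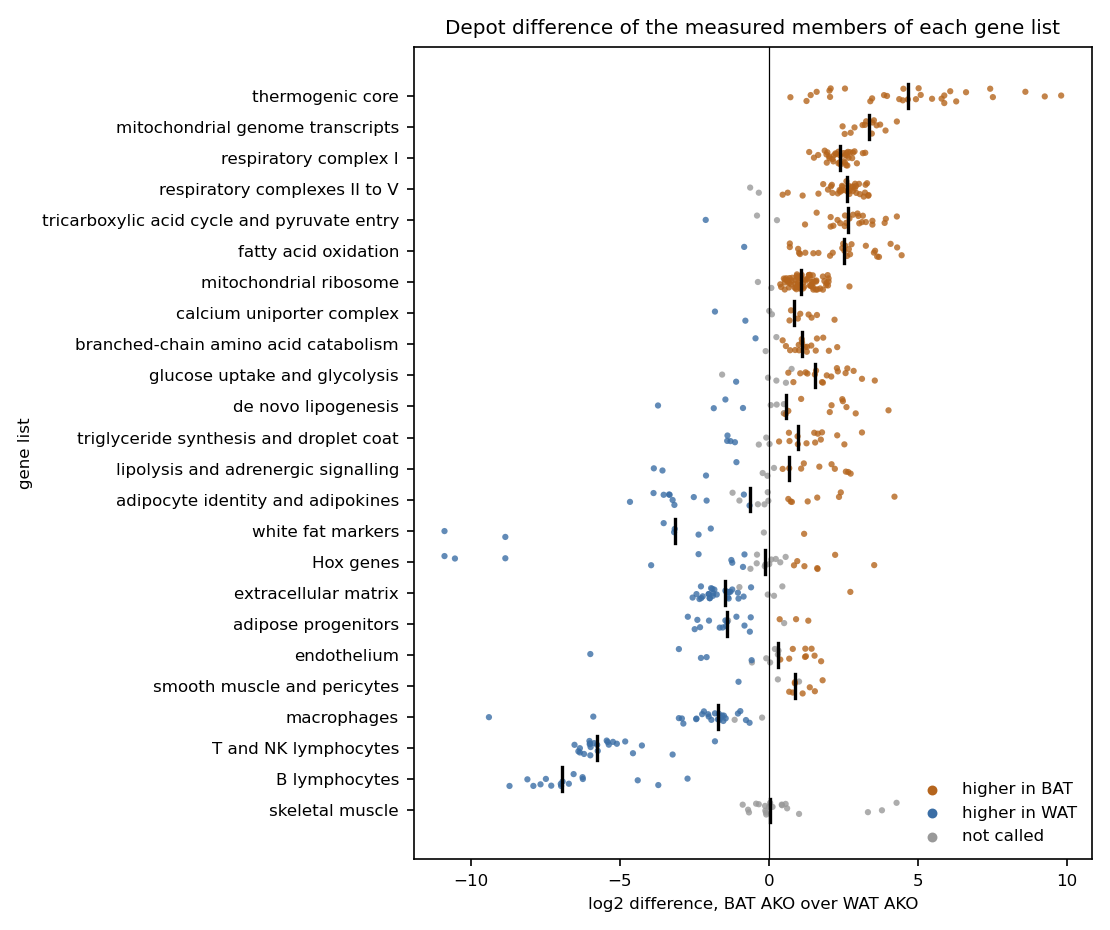
Log2 difference, BAT AKO over WAT AKO, of each tested member of 24 gene lists, coloured by its call, with a black bar at the list's median. The lists of heat production, respiration and oxidation lie to the right, with medians from 2.40 to 4.66, and the lymphocyte lists lie to the left, with medians of -5.76 and -6.94.

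The machinery that makes mitochondria differed by less than what it builds. Of 76 mitochondrial ribosome genes 75 were tested and 73 were higher in BAT, with a median log2 difference of 1.07 against 2.40 for complex I. With library totals 54 were higher in BAT and 2 in WAT, with a median of 0.49. Mrpl34, Mrps35 and Mrpl55 were higher by 2.70, 2.00 and 1.86. Of 24 factors of mitochondrial and peroxisomal biogenesis, 20 were higher in BAT and 2 in WAT (median 0.96), or 12 and 4 with library totals (median 0.39). Among the 20 were the mitochondrial transcription proteins Tfb2m and Polrmt (log2 differences 1.54 and 1.26). Rxra, the partner of many nuclear receptors, and Fis1, a fission protein, were the 2 higher in WAT (log2 differences -0.76 and -0.45). The fatty acid receptor Ppara, counted in the thermogenic list, was at 229 ± 52.4 CPM in BAT against 3.89 ± 0.907 in WAT. Of 26 carriers of the Slc25 family, 15 were higher in BAT and 6 in WAT (median 1.12), or 13 and 9 with library totals (median 0.54). The coenzyme A carrier Slc25a42 (928 ± 18.1 against 38.9 ± 5.60 CPM) and the NAD carrier Slc25a51 (log2 difference 2.62) were higher in BAT. The dicarboxylate carrier Slc25a10 (30.0 ± 9.17 against 211 ± 33.0 CPM, log2 difference -2.81) and Ucp2 (-1.96) were higher in WAT. Of 20 genes of branched-chain amino acid catabolism, 17 were higher in BAT and 1 in WAT (median 1.11), or 14 and 3 with library totals (median 0.54). Bckdha, Bckdk, Pcca and Pccb, which act from the branched-chain dehydrogenase onward, were higher in BAT by 2.29, 1.57, 2.01 and 1.82, and Bcat2, the aminotransferase of the first step, was higher in WAT (log2 difference -0.45, adjusted p = 0.00728). The directions of Fis1 and Bcat2 hold under the scalings tried, which move genes towards WAT.

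The uniporter complex around the deleted gene was not uniform. Of its 12 listed members, 8 were higher in BAT, 2 higher in WAT and 2, Mcu and Micu2, not called, and with library totals 6 were higher in BAT and 3 in WAT. The proton and ion exchanger Letm1 (416 ± 33.1 against 90.6 ± 4.78 CPM, log2 difference 2.2) and the scaffold Mcur1 (1.61) had the largest differences among the members higher in BAT. The outer membrane channels Vdac1, Vdac2 and Vdac3 were higher by 1.43, 1.33 and 1.05, and the essential subunit Smdt1 by 0.97. Of the gatekeepers, Micu3 was higher by 0.74, a call that library totals removed, and Micu2 was at 50.8 ± 4.58 against 47.3 ± 0.199 CPM (log2 difference 0.10, adjusted p = 0.356). Mcub, a pore paralog that lowers uptake, was higher in WAT (1.41 ± 0.315 against 4.98 ± 0.840 CPM, log2 difference -1.81), as was Slc8b1, the sodium and calcium exchanger that lets calcium out (-0.79).

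Several mitochondrial and metabolic proteins exist in a form known from brown fat, heart or muscle and a form found more widely. In some of these pairs the shares of the forms differed between the depots. The share of the first gene in the summed FPKM of a pair compares levels per gene length. Cox7a1 made up 65.9%, 63.8% and 67.5% of the Cox7a1 and Cox7a2 pair in BAT and 8.61%, 20.5% and 7.14% in WAT. Cox8b made up 60.1% ± 1.87 of its pair with Cox8a in BAT and 10.7% ± 1.40 in WAT. Cpt1b, the muscle-type carnitine enzyme, made up 42.5% ± 3.25 and 0.694% ± 0.231 of the pair with Cpt1a. The highest WAT share of Cox7a1 was in the muscle-rich WAT AKO 2, and without both muscle-rich libraries the log2 difference of Cox7a1 was 6.96 in place of 6.08.

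Ldhb, the lactate dehydrogenase form that favours pyruvate, made up 49.5% ± 4.42 of its pair with Ldha in BAT and 13.6% ± 3.76 in WAT. Ucp1 made up 99.5% ± 0.039 against 5.41% ± 5.58 of the pair with Ucp2. Elovl3 made up 27.2% ± 0.828 against 3.15% ± 3.67 of the pair with Elovl6. Fabp3, the heart-type fatty acid binding protein, reached 49.4% ± 5.15 of the sum with the adipocyte form Fabp4 in BAT and 0.339% ± 0.372 in WAT. Fabp4 itself was at 9322 ± 490 and 8905 ± 813 CPM, with overlapping ranges (adjusted p = 0.645). Me3 was 5.70% ± 0.925 against 0.160% ± 0.0817 of its pair with Me1. Cox4i2, the form associated with low oxygen, made up the larger share in WAT (1.10% ± 0.0189 against 3.8% ± 0.510 of the pair with Cox4i1). Each of these 9 pairs separated the depots without overlap, at the smallest exact permutation p of 0.1, unadjusted over 14 pairs. Single genes did not overlap between the depots in 67.5% of all genes tested, so the count of 9 does not set these pairs apart. In the pairs led by Cox6a2, Atp2a1, Hk2, Gys2 and Slc25a4 the shares overlapped (exact p from 0.3 to 1). The highest shares of Cox6a2, Atp2a1 and Slc25a4 in each depot were in the muscle-rich libraries, and the part of muscle RNA in them was not tested.

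**Figure D3:**
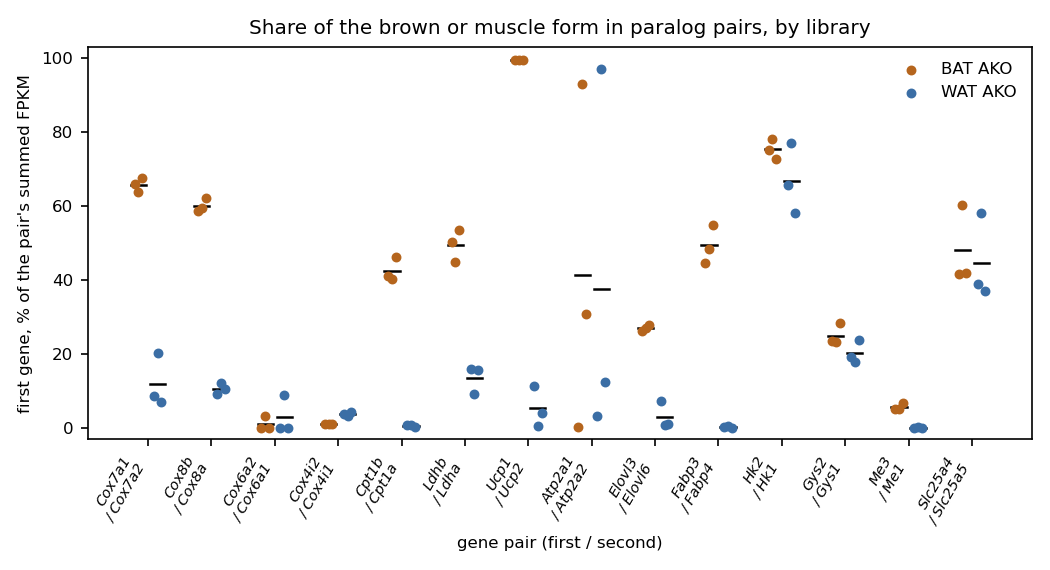
Share of the first gene in the summed FPKM of 14 gene pairs, in percent, for each BAT AKO and WAT AKO library, with black bars at the group means. Cox7a1, Cox8b, Cpt1b, Ldhb, Ucp1, Elovl3 and Fabp3 take a larger share in each BAT library than in any WAT library.

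Sugar and fat metabolism were divided between the depots. Of 24 genes of glucose uptake and glycolysis, 18 were higher in BAT and 1 in WAT (median log2 difference 1.56). The lactate and pyruvate transporter Slc16a1 (318 ± 29.8 against 36.6 ± 4.99 CPM), Pfkl of the committed step (log2 difference 2.84), Eno1 (2.63), Pgam1 (2.57) and the glycogen phosphorylase Pygl (2.09) were higher in BAT. Slc2a1, the widespread glucose transporter, was higher in WAT (8.94 ± 1.99 against 19.2 ± 1.56 CPM, log2 difference -1.10). Of 19 genes of de novo lipogenesis, 11 were higher in BAT and 4 in WAT (median 0.56), or 7 and 5 with library totals (median 0.00). The fatty acid synthesis enzymes Acly, Acaca and Acacb were higher in BAT by 2.1, 2.46 and 2.60, the elongase Elovl6 by 4.01 and the sugar-sensing factor Mlxipl by 2.91. The desaturases went both ways. Scd2 (123 ± 30.3 against 445 ± 79.6 CPM, log2 difference -1.85), Fads1 (-1.46) and the low-level Scd4 (-3.72) were higher in WAT. Scd1, the nuclear protein-coding gene with the highest FPKM in each depot, was at 49500, 42353 and 39321 CPM in BAT against 27563, 37350 and 28015 in WAT. That call for Scd1 (log2 difference 0.50, adjusted p = 0.0301) was lost when any of BAT AKO 1, 2 or 3 or WAT AKO 1 or 3 was left out (adjusted p 0.0506 to 0.168), its adjusted p was 0.135 with the replicate number as a block, and its log2 difference was -0.07 with library totals.

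Triglyceride synthesis and the droplet coat showed 14 of 21 tested genes higher in BAT and 4 in WAT (median 0.96), or 11 and 7 with library totals (median 0.38). Gpd1, which makes the glycerol backbone, averaged 5853 ± 629 CPM in BAT and 675 ± 144 in WAT (log2 difference 3.12). The acyltransferases Agpat2 and Agpat3 were higher in BAT by 2.53 and 2.29, the droplet coat protein Plin2 by 1.78 and the glycerol channel Aqp7 by 1.26. Plin4, the droplet coat protein typical of white fat (1362 ± 117 against 3564 ± 187 CPM, log2 difference -1.39), and the acyltransferase Mogat1 (-1.29) were higher in WAT.

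Of 17 genes of lipolysis and adrenergic signalling, 10 were higher in BAT and 4 in WAT (median 0.68), or 8 and 7 with library totals (median 0.11). The receptor Adrb1 (40.1 ± 2.85 against 6.34 ± 0.302 CPM), the alpha receptor Adra1a (log2 difference 2.58), the stimulatory G protein Gnas (2.74), the cyclase Adcy3 (2.21) and the catalytic kinase subunit Prkaca (1.69) were higher in BAT. The cyclase Adcy5 was at 23.4, 23.4 and 17 CPM in BAT and at 228, 285 and 246 CPM in WAT (log2 difference -3.57, adjusted p = 6.47e-06). The inhibitory receptor Adra2a (-3.86) and the natriuretic peptide clearance receptor Npr3 (-2.11) were also higher in WAT, so the adenylate cyclase forms differed between the depots in opposite directions. Adcy3 overlaps a gene on the opposite strand. Of 12 genes of fatty acid uptake, 5 were higher in BAT and 3 in WAT (median 0.12), or 2 and 8 with library totals (median -0.45). With TMM factors 28.8% and 30.5% of all genes tested were so called. Fabp3 was at 1462, 1530 and 2071 CPM in BAT and 3.73, 13.6 and 0.402 CPM in WAT (log2 difference 8.16), reads it may share with its pseudogene Fabp3-ps1, and the transporter Slc27a1 was higher in WAT (-1.01).

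Secreted products and white fat markers ran the other way. Of 27 genes of adipocyte identity and adipokines 25 were tested, with 8 higher in BAT and 11 in WAT (median -0.65), or 5 and 16 with library totals. Over all genes tested the shares with TMM factors were 28.8% and 30.5%. Leptin, the hormone that signals fat stores to the brain, was at 164, 101 and 144 CPM (Lep) in BAT and at 1790, 1923 and 1037 CPM in WAT (log2 difference -3.53, adjusted p = 5.17e-05), with no overlap. Adiponectin differed far less (Adipoq, 991 ± 56.1 against 1771 ± 324 CPM, log2 difference -0.84, adjusted p = 0.00222). The complement protease Cfd, also called adipsin, was higher in WAT (429 ± 97.9 against 2457 ± 122 CPM, log2 difference -2.52). The imprinted gene Nnat (-3.17) and the BMP antagonist Chrdl1 (-3.23) were higher in WAT too. The purine receptor P2rx5 (137 ± 25.3 against 7.42 ± 1.03 CPM), the amino acid transporter Slc36a2 (log2 difference 2.41) and the factor Cebpb (2.35) were higher in BAT.

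Of 11 white fat markers 9 were tested, 7 higher in WAT and 1, the factor Ebf3, higher in BAT (59.3 ± 3.24 against 26.2 ± 1.61 CPM). The amino acid transporter Slc7a10 (22.4 ± 6.65 against 201 ± 24 CPM, log2 difference -3.16), the serine synthesis enzyme Psat1 (-3.18) and the nicotinamide methyltransferase Nnmt (-1.95) were among the 7. Slc7a10 and Cebpb overlap genes on the opposite strand. Among genes of creatine and other UCP1-independent heat cycles, 6 of 12 tested were higher in BAT and 2 in WAT. The phosphatase Alpl (43.9 ± 2.08 against 4.24 ± 0.739 CPM), Pm20d1, which makes N-acyl amino acids (log2 difference 2.49), the creatine transporter Slc6a8 (1.56), the calcium pump Atp2a2 (1.65) and the calcium release channel Ryr2 (3.59) were higher in BAT, and Gamt, the last enzyme of creatine synthesis (-1.79), and Aldh1a1 (-2.76) in WAT. Ckmt2, the mitochondrial creatine kinase, was at 0, 124 and 5.02 CPM in BAT and 0.129, 33.0 and 0.134 in WAT, highest in the muscle-rich library of each depot. It was not called (adjusted p = 0.459), but was called without WAT AKO 2 (log2 difference 8.31, adjusted p = 0.0495), without both muscle-rich libraries (4.17, adjusted p = 0.0399) and with the replicate number as a block (2.36, adjusted p = 0.00669).

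With TMM factors the called Hox genes divided by their place in the clusters. These genes encode factors that pattern the body axis, and a higher paralogue number marks a position further towards the tail. Of 39 Hox genes 26 were tested, 7 higher in BAT and 9 in WAT, shares near the 28.8% and 30.5% of all genes tested. The 7 higher in BAT had numbers from 2 to 5 and the 9 higher in WAT numbers from 7 to 10. With library totals 4 were higher in BAT, with numbers 4 and 5, and 14 in WAT, with numbers from 3 to 10. The 5 added WAT calls were Hoxb3 (-0.70), Hoxd4 (-1.20), Hoxb5 (-0.99), Hoxa6 (-0.98) and Hoxc6 (-0.71), so under that scaling calls in both directions were found at the numbers 4 and 5. Hoxa4 (16.2 ± 2.56 against 1.39 ± 0.333 CPM, log2 difference 3.53), Hoxa5 (2.22), Hoxc4 (1.63) and Hoxc5 (1.62) were higher in BAT, and so were Hoxb2, Hoxb4 and Hoxa3 by 1.19, 0.95 and 0.84, calls that library totals removed.

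At the other end of the clusters the WAT levels were higher. Hoxc10 had 859 counts in the WAT libraries and 0 in the BAT libraries, at least 176-fold higher in WAT against a floor of 3 counts over the BAT group, and Hoxa10 had 682 and 0, at least 140-fold. Hoxc9 had 951 and 1, a depth-scaled ratio of 586 with a 95% counting interval of 105 to 2.32e+04. Hoxa9 (0.949 ± 0.425 against 14.7 ± 3.62 CPM, log2 difference -3.95), Hoxc8 (-2.36) and Hoxb9 (-1.26) were lower in BAT as well. The calls of Hoxb7 (-0.82), Hoxb8 (-0.87) and Hoxd9 (-1.23) were near the threshold. Hoxb7 lost its call without BAT AKO 1 or BAT AKO 2, Hoxb8 without any BAT library or WAT AKO 3, and Hoxd9 without BAT AKO 1, BAT AKO 3 or any WAT library (adjusted p 0.0502 to 0.097). Hoxc6, between the 2 ends, was at 26.6, 24.2 and 30.9 CPM in BAT and at 24.4, 34.2 and 31.3 CPM in WAT, with overlapping ranges (log2 difference -0.14, adjusted p = 0.48).

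**Figure D4:**
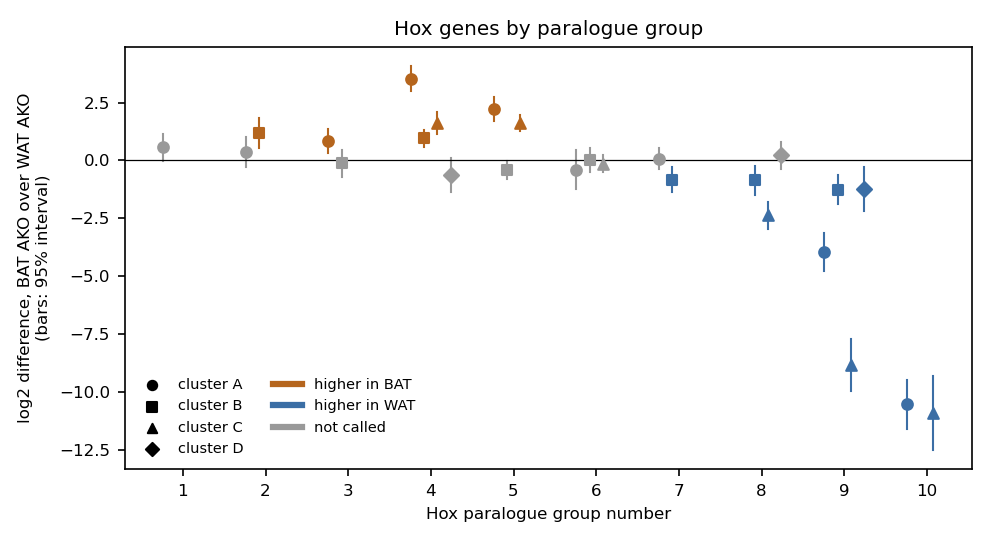
Log2 difference, BAT AKO over WAT AKO, of the 26 tested Hox genes against paralogue number, with 95% intervals and a marker shape for each cluster. With the TMM factors plotted, calls above 0 have numbers 2 to 5 and calls below 0 numbers 7 to 10, while library totals add calls below 0 at numbers 3 to 6, and the fitted values of Hoxa10 and Hoxc10, which had no count in BAT, depend on the prior count of the fit.

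Other developmental transcription factors were less often measured: 24 of 43 were tested, 6 higher in BAT and 4 in WAT (median 0.13). The counts were 2 and 8 with library totals (median -0.47), 7 and 8 with the replicate number as a block (median 0.11) and 6 and 7 without both muscle-rich libraries (median -0.13). Tbx15, Shox2 and Eya4 were among the WAT calls added in both of the last 2 fits. Tbx5, a factor of the forelimb and heart, was at 12.5, 8.82 and 14.8 CPM in BAT and at 1.63, 1.11 and 2.1 CPM in WAT (log2 difference 2.89). Irx1 (-2.76) and Irx2 (-2.30) were higher in WAT. Tbx15, used as a white fat marker but also present in muscle, was at 4.66, 33.8 and 5.17 CPM in BAT and at 12.1, 46.1 and 12.8 CPM in WAT, highest in the muscle-rich libraries. It was not called with all libraries (log2 difference -0.70, adjusted p = 0.507), and its log2 difference was -1.34 without both muscle-rich libraries (adjusted p = 0.000643) and -0.99 with the replicate number as a block (adjusted p = 0.00562).

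The matrix and its producers were lower in BAT. Of 33 extracellular matrix genes, 28 were higher in WAT and 1 in BAT (median log2 difference -1.46), to which the replicate block added Postn in BAT (0.45, adjusted p = 0.0114). Col3a1, a fibrillar collagen, was at 456, 468 and 464 CPM in BAT and at 1716, 1997 and 1398 CPM in WAT (log2 difference -1.88, adjusted p = 4.09e-05). Col5a1, Col5a2, Col5a3 and Col18a1 differed by -1.98, -2.22, -2.43 and -2.33, and the matrix protease Mmp2 by -1.90. Col12a1 was the member higher in BAT (85.8 ± 34.6 against 12.9 ± 2.59 CPM, log2 difference 2.73). Of 19 progenitor markers, 14 were higher in WAT and 3 in BAT (median -1.40), or 15 and 1 with library totals. The receptor Pdgfra, which marks fibroblasts and fat precursors, differed by -1.44, the matrix protein Dpt by -2.72, Ccn5 by -2.40 and Cd55 by -2.31. Tissue factor, F3, was higher in BAT (log2 difference 1.32).

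Blood vessels and pericytes did not share that direction. Of 20 endothelial genes, 9 were higher in BAT and 5 in WAT (median 0.31), or 6 and 7 with library totals (median -0.28). Among all genes tested 28.8% and 30.5% were called in these directions with TMM factors. The VEGF receptors Flt1 (249 ± 13.4 against 74.3 ± 11.3 CPM) and Kdr (262 ± 24.2 against 96.8 ± 14.7 CPM), the angiopoietin receptor Tek (log2 difference 1.21) and Emcn (1.24) were higher in BAT. Plvap, which spans the diaphragms of fenestrated capillaries (-2.28), and the lymphatic genes Lyve1 (-3.02) and Ccl21a (-5.99) were higher in WAT. Of 11 tested smooth muscle and pericyte genes, 8 were higher in BAT (4 with library totals), such as Rgs5 (621 ± 27.4 against 241 ± 36.0 CPM) and Cspg4 (log2 difference 0.87, a call that library totals removed), and Acta2 was higher in WAT (-1.02). Of 13 tested genes of nerve and Schwann cells, 3 were higher in BAT, among them the receptor Gfra3 (1.48), and 5 in WAT, among them the myelin gene Prx (-1.09), or 2 and 8 with library totals.

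Immune cell transcripts were higher in WAT. Of 27 macrophage genes, 25 were higher in WAT, and the other 2 also had log2 differences below 0 (median -1.71). Csf1r, the receptor on which macrophages depend, was at 33.4, 38.5 and 40.6 CPM in BAT and at 130, 127 and 136 CPM in WAT (log2 difference -1.81), and it overlaps a gene on the opposite strand. The complement genes C1qa and C1qb differed by -1.93 and -1.68, the lectins Clec10a and Lgals3 by -2.92 and -2.43, and the general marker Adgre1 by -0.77. Marco and Timd4, receptors of resident macrophages, differed by more. Marco had 3 counts in BAT and 3553 in WAT, a depth-scaled ratio of 729 with a counting interval of 249 to 3.54e+03, and Timd4 averaged 0.728 ± 0.402 against 43.3 ± 10.2 CPM.

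The 16 B cell genes tested and the 23 T and NK cell genes tested were each called higher in WAT, with medians of -6.94 and -5.76. Cd79a, part of the B cell receptor, was at 2.44, 1.84 and 2.1 CPM in BAT and at 137, 110 and 240 CPM in WAT. Ms4a1, Ighd, Pax5 and Spib differed by -7.66, -7.48, -6.97 and -8.10, and of the T cell genes Cd3e, Lck, Ccr7 and Tcf7 by -5.37, -5.86, -6.52 and -6.34. None of the defining lymphocyte markers was at 0 in all libraries of either depot, and the part of lymphoid tissue in the WAT-higher genes was not tested. In the controls, T and NK cell genes made up 0.06499% of counts in WAT control 2 and 0.00348% and 0.005568% in WAT control 1 and 3. B cell genes made up 0.2757% in WAT control 2, and their 0.1332% and 0.1636% in WAT control 1 and 3 were also above the 0.01597% to 0.01968% of the BAT controls. Leaving out WAT control 2 took the median of the B cell genes tested there from -4.18 to -1.11 and that of T cell genes from -4.03 to -1.56, with Ccl21a at -0.70 and Cd79a at 1.81. The same step left the control median of the macrophage genes at -2.10, of matrix genes at -2.14 and of progenitor markers at -1.44. Of 22 genes of mammary and other epithelium 6 were tested and 5 were higher in WAT, all at low levels, such as Epcam with 3 counts in BAT and 93 in WAT. Of 20 muscle genes tested, edgeR, DESeq2 and limma voom each called 0, with 0 at an unadjusted p under 0.05, and the groups overlapped in each gene (median 0.02). The muscle-rich libraries were 1 of each depot, and the median was -4.21 without BAT AKO 2 and 6.06 without WAT AKO 2. The replicate block called 4 genes higher in BAT (median 0.58), and a fit with the share of 5 muscle genes in each library as covariate called 12 (median 1.26). That covariate is itself made of muscle transcripts, so calls of muscle genes under it are not independent of it. Without both muscle-rich libraries, 3 muscle genes were called higher in BAT, named here after their values were seen: Des (log2 difference 1.33), Myl1 (1.54) and Mb (3.34), the muscle filament, myosin light chain and myoglobin genes. The same 3 were called without WAT AKO 2, and the block called these and Myh2, a fast myosin (3.08, adjusted p = 0.00528).

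Genes were ranked by difference if they were called, had a mean of at least 2 CPM and did not overlap between the depots. Genes with the symbol of a predicted gene and immunoglobulin and T cell receptor segments were left out. Members of the lymphocyte, muscle and epithelium lists were left out too. The 15 largest BAT-higher differences were those of Lgr6, Ucp1, Fam131c, Slc27a2, Kng2, Zic1, Fabp3, Mmd2, Rnf182, Aspg, Elovl3, Fabp3-ps1, Cidea, Cpn2 and Gldn. Lgr6, a receptor for R-spondins that boost Wnt signalling, was at 209, 191 and 294 CPM in BAT and at 0.171, 0.101 and 0.0447 CPM in WAT (log2 difference 10.99, SE 0.37). Kng2, a kininogen, averaged 248 ± 41.2 against 0.511 ± 0.364 CPM, and Aspg, an asparaginase, 251 ± 40.3 against 1.36 ± 0.0389 CPM. Fam131c had 202 counts in BAT and 0 in WAT and was at least 109-fold higher. Each of the 15 was also called higher in BAT than in WAT in the controls without WAT control 2.

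By the same rule, with lymphocyte, muscle and epithelium list members counted apart, the 15 largest WAT-higher differences were those of Glycam1, Hoxc10, Hoxa10, Dsc3, Rasal1, Dsg2, Serpina10, Fcamr, Marco, Hoxc9, Ccl19, Fcmr, Lta, Il9r and Tnfsf8. Glycam1, a ligand for lymphocyte homing in the high endothelial venules of lymph nodes, had 2047 counts in WAT and 0 in BAT, at least 420-fold higher. The desmosomal genes Dsc3 and Dsg2, Rasal1, Serpina10 and the immunoglobulin receptor Fcamr also had 0 counts in BAT, with lower bounds from 69.8-fold to 119-fold. Ccl19, the chemokine that guides CCR7-bearing lymphocytes, had 2 and 1344 counts. The genes of lymph node stroma and lymphocytes in this ranking stood beside the B cell share of 0.2478% to 0.4805% in WAT given above. In the controls without WAT control 2, 5 of the 15 passed the filter on low counts, Hoxc10, Hoxa10, Fcamr, Marco and Hoxc9, and the 5 were called higher in WAT.

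Per gene length, the depots also differed in what fills the transcriptome. In BAT the 20 genes with the highest FPKM included 10 from the mitochondrial genome. The highest nuclear entry was Gm23935, annotated as a microRNA (9275 FPKM). Other nuclear genes among the 20 were Scd1 (7399 FPKM), Cox6a1 (3072), Ucp1 (2299), the ferritin chain Fth1, Acaa2 (1835), Cox8b (1765), Atp5b (1734) and Cidea (1723). In WAT 6 of the 20 were mitochondrial. Nuclear genes among the 20 included Scd1 (7753 FPKM), the carbonic anhydrase Car3 (4115), Gm23935 (4016), the actin-severing protein Gsn (3421), Cfd (3254), Fabp4 (2411), Apoe (2339), the droplet protein Cidec (2277), B2m (2249) and Adipoq (1552). Cidec and Cidea, which act in the same family on droplet fusion, were placed in opposite order: Cidec averaged 1585 ± 159 CPM in BAT against 3489 ± 561 in WAT, and Cidea 2452 ± 142 against 14.3 ± 6.31.

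Of the genes for defence against oxidants, 11 of 21 were higher in BAT and 3 in WAT (median 0.38), or 6 and 10 with library totals (median -0.19). Gpx3 (2297 ± 120 against 371 ± 51.4 CPM) and the mitochondrial enzymes Sod2 (log2 difference 2.55) and Txnrd2 (2.03) were higher in BAT, and Gsta3 (-3.81) and the haem oxygenase Hmox1 (-1.51) in WAT. Cholesterol synthesis and uptake showed 8 of 23 genes higher in BAT and 5 in WAT, with a median of -0.03. The counts were 4 and 11 with library totals (median -0.59), and 8 and 2 without both muscle-rich libraries (median 0.25). The Y-linked genes tested were counted in every library (Ddx3y 532 to 1310 counts), and Xist had 0 to 14.

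Most of these depot differences were present in the control libraries too, which share no library with the comparison above. Of the 4510 genes higher in BAT in AKO, 4432 were tested in the controls, 94.4% had the same sign and 70.6% were called the same way, with 22 called the opposite way. Of the 4781 higher in WAT, 4231 were tested, 94.7% had the same sign and 66.7% were called the same way, with 7 opposite. Without WAT control 2, 2949 of 4472 and 2541 of 4238 were called the same way. A total of 7524 of 15031 genes (50.1%) differed between the control depots. The list medians had the same sign in both genotypes for heat production, respiration and matrix: complex I stood at 2.40 in AKO and 2.35 in controls, fatty acid oxidation at 2.53 and 2.32, the thermogenic list at 4.66 and 4.03, transcripts of the mitochondrial genome at 3.35 and 2.57, and matrix genes at -1.46 and -2.16. Further apart were muscle genes at 0.02 and -2.82, and genes of creatine and other UCP1-independent cycles at 1.31 and -0.04. So were B cell genes at -6.94 (16 tested) and -4.18 (7 tested), and T and NK cell genes at -5.76 (23 tested) and -4.03 (16 tested). Fewer lymphocyte genes were tested in the controls, so these gaps mix a change of members with a change of difference. Without WAT control 2 the control medians were -1.11 for B cell and -1.56 for T and NK cell genes. None of the members of these 9 lists had a depot difference that differed between genotypes in the test that follows. Ucp1 did not follow the order of the thermogenic medians, with log2 differences of 9.80 in AKO and 14.02 in controls (-4.30 in that test, adjusted p = 0.128). It had 255, 9 and 89 counts in the WAT AKO libraries and 5, 0 and 9 in the WAT controls.

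Whether a depot difference itself depends on genotype was tested with the interaction of depot and genotype over the 12 libraries. At an adjusted p under 0.05, 45 of 16391 genes (0.275%) were called, 25 (0.153%) with a log2 difference shifted towards BAT in AKO and 20 (0.122%) towards WAT. Klf11, a Kruppel-like transcription factor, was at 38.1, 36.6 and 36.3 CPM in BAT AKO, at 16.9, 16.5 and 16.8 in BAT control, at 18.1, 18.9 and 17 in WAT AKO and at 22.1, 20.2 and 21.6 in WAT control. BAT AKO stood above the other 3 groups without overlap, and the interaction was 1.38 on the log2 scale (adjusted p = 0.0014), with a log2 depot difference of 1.11 in AKO and -0.35 in controls. Ier5, an immediate early response gene, was at 18.9, 21.7 and 14.2 CPM in BAT AKO, 37.0, 38.6 and 45.1 in BAT control, 100.1, 89.6 and 130.0 in WAT AKO and 34.9, 35.0 and 31.8 in WAT control. It was higher in WAT AKO and lower in BAT AKO than in the controls of the same depot (interaction -2.79, adjusted p = 0.0015).

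The same 2 genes were the only ones called when WAT AKO 1, WAT AKO 3 or BAT AKO 1 was left out. The count was 4 without BAT AKO 3, 11 without BAT AKO 2 and 97 without WAT AKO 2, so it rests on the number of libraries and on which are kept. With the replicate number as a block 261 genes were called, 44 of the 45 among them, and with DESeq2 965, all 45 among them. A pair of genes of triglyceride synthesis, Agpat2 and Dgat2, were among the 45. Agpat2 was at 1383, 1148 and 1221 CPM in BAT AKO, 904, 1067 and 806 in BAT control, 194, 251 and 239 in WAT AKO and 509, 617 and 477 in WAT control (interaction 1.66). Its log2 depot difference was thus 2.53 in AKO and 0.78 in controls. The lysosomal lipase Lipa showed the same order of groups (interaction 1.23). Snhg15, a small nucleolar RNA host gene, and Bbc3, the pro-apoptotic PUMA, were highest in WAT AKO (10.7 to 16.9 and 68.4 to 99.9 CPM) and lowest in BAT AKO (1.08 to 2.06 and 11.4 to 13.2 CPM), with interactions of -2.97 and -2.49.

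**Figure D5:**
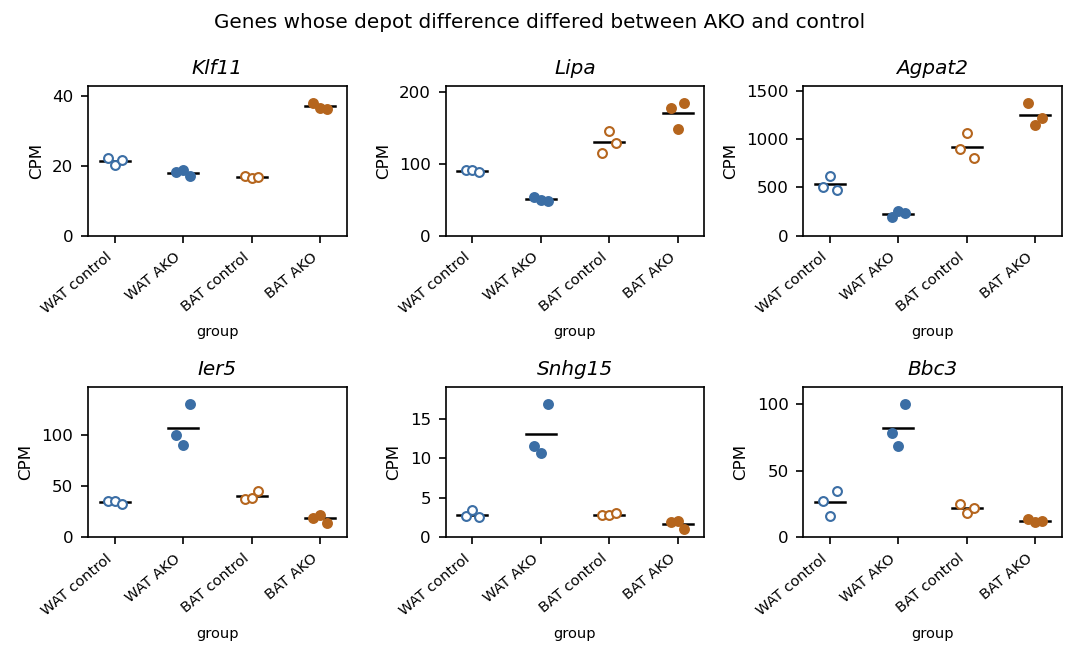
CPM of Klf11, Lipa, Agpat2, Ier5, Snhg15 and Bbc3 in the 12 libraries, open circles for controls and filled circles for AKO, with black bars at the group means. Klf11, Lipa and Agpat2 are highest in BAT AKO, and Ier5, Snhg15 and Bbc3 are highest in WAT AKO and lowest in BAT AKO.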

How the data were processed

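Poly(A) RNA from inguinal white and brown adipose tissue was sequenced (12 libraries, 3 in each of 4 groups). Per the submitters' processing notes, Bowtie2 2.2.3, HISAT2 2.1.0 and HTSeq 0.6.0 and the build mm10 were used, with no role or order given, and per the labels' protocols TRIzol extracts went into a VAHTS Universal V6 library kit. The authors deposited raw counts per gene for 52550 genes, and FPKM for 31231 genes. Per the file's values, the deposited FPKM equal counts over a constant per gene and the library total (largest relative deviation 1.22e-08 at 20 or more counts). Symbols and coordinates came from GENCODE M21, which named 52403 genes. Which annotation release was counted against, and whether strand was used, is not given in sources used here.

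Counts of the 6 AKO libraries were fitted with edgeR 4.0.16 (quasi-likelihood test, TMM factors, filterByExpr with a minimum count of 10 and total of 15, no covariate) in R 4.3.3, which left 15671 of the 29064 genes with a count. P-values were adjusted by the Benjamini-Hochberg method over all genes tested, with a threshold of 0.05. The interaction of depot and genotype was fitted to all 12 libraries. Intervals of ratios with 3 or fewer counts in a depot are exact at 95% and cover counting error only, and a group at 0 was set to 3 counts over its libraries for a lower bound. The test was tried on simulated counts. Alternatives used DESeq2 1.42.0, limma 3.58.1, other factors, filters and thresholds, left-out libraries and the deposited FPKM. Same-numbered libraries of the depots deviated together from their group means (correlations 0.693, 0.737 and 0.119), so the number was treated as a pairing in the blocked fit. Differently numbered pairs correlated at -0.735 to 0.505, and WAT AKO 3 correlated more with BAT AKO 1 (0.505) and WAT AKO 1 with BAT AKO 3 (0.209) than the pair numbered 3 did. Replicates of each group differed by more than sampling noise.

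Gene lists (35, with 818 distinct genes) and the comparison itself were chosen with earlier results of these data known. Genes named are fixed markers, the 15 largest differences in each direction, up to 6 members of a list with the smallest p and up to 3 called against its majority, members of the uniporter, Hox, developmental, mitochondrial genome and paralog lists, the 20 genes highest by FPKM in each depot, and for the interaction the 8 genes of smallest p on each side. Protein sequences were not used here. Some genes covered by these rules are not reported here.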

Additional observations from a re-analysis of the deposited data

Results flagged for a closer look

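The depot difference of 18 genes differed between AKO and control in the interaction test over 12 libraries (edgeR quasi-likelihood test, Benjamini-Hochberg adjustment), 16 of them by the rule for named genes and 2, Insig1 and Dgat2, chosen after their values were seen. Towards BAT in AKO, the log2 interactions were 1.38 for Klf11, 1.23 for Lipa, 1.29 for Steap3, 1.66 for Agpat2, 1.61 for Krt79, 1.54 for Prps1, 2.01 for Ptger3 and 1.00 for Daam1. Insig1, which holds back cholesterol synthesis, averaged 359.6 ± 25.7 CPM in BAT AKO, 166.5 ± 76.5 in BAT control, 96.8 ± 19.0 in WAT AKO and 321.1 ± 83.7 in WAT control, an interaction of 2.84. Dgat2, which makes triglyceride, had an interaction of 1.59, with the highest level again in BAT AKO and the lowest in WAT AKO. In the controls 8 of these 10 genes had a higher mean in WAT than in BAT, the exceptions being Lipa and Agpat2. Ptger3, a prostaglandin receptor, averaged 73.2 ± 2.82 CPM in BAT AKO against 48.9 ± 11 in WAT AKO but 53.8 ± 2.72 against 144.7 ± 37.9 in the controls.

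Towards WAT in AKO, the log2 interactions were -2.79 for Ier5, -2.97 for Snhg15, -2.19 for Aaas, -2.49 for Bbc3, -2.23 for Icam1, -0.86 for Pdcd11, -0.92 for Irf2 and -1.48 for Zfp688. Icam1, a leukocyte adhesion molecule that overlaps a gene on the opposite strand, averaged 55.4 ± 13.7 CPM in WAT AKO, 31.6 ± 2.72 in WAT control, 13 ± 3.49 in BAT AKO and 34.8 ± 7.61 in BAT control. Each of these 8 genes had its highest group mean in WAT AKO, and 7 had their lowest in BAT AKO, Pdcd11 having its lowest in WAT control. The lymphocyte share of each WAT AKO library was above that of WAT control 1 and 3. B cell genes made up 0.2757% of counts in WAT control 2, and 0.3255%, 0.2478% and 0.4805% in WAT AKO 1, 2 and 3. Each of these 8 genes was lower in WAT control 2, a single library, than in every WAT AKO library, such as Ier5 at 34.98 against 89.55 to 130.0 CPM. The part of lymphocytes in these contrasts was not tested.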

How the results depend on the processing

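The number of genes that differed between BAT AKO and WAT AKO was 7042 to 10866 under 21 other settings and 5135 when a 2-fold difference was also required. It was 8056 to 9110 when each library was left out in turn, 8839 without both muscle-rich libraries, and 9125 with the replicate number as a block, which lost the calls of Scd1 and Daam1 and gained those of Tbx15, Ckmt2 and Cox6a2 among the genes named. By list, the block moved 3 counts by over 1.5 times: WAT-higher developmental factors from 4 to 8, BAT-higher muscle genes from 0 to 4 and BAT-higher matrix genes from 1 to 2. What moved was the direction of small differences under 3 settings relative to library totals (library totals alone, log2 of FPKM plus 0.1, and log2 of FPKM plus 1). Under these, in that order, the log2 difference was -0.48, -0.48 and -0.45 for Micu2, -0.50, -0.48 and -0.48 for Me1, -0.51 each time for Fabp4, -0.07 each time for Scd1, and -0.25, -0.25 and -0.19 for Daam1. List medians became -0.45 each time for fatty acid uptake, -0.47, -0.43 and -0.29 for developmental factors, -0.28, -0.25 and -0.25 for endothelium, -0.19, -0.19 and -0.18 for antioxidant genes, and -0.43, -0.39 and -0.25 for sex-linked genes, and the median of cholesterol genes was 0.25 without both muscle-rich libraries. The reversals under library totals follow from the shift of all genes that this scaling makes. The count of the interaction, 45, was 261 with the replicate block, 965 with DESeq2, and 2 to 97 with 1 AKO library left out, and the cause was not tested. With 3 libraries a group no exact test of a library share can go below p = 0.1, and genes with few counts in a depot have wide intervals.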

Other observations

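Among WAT-higher genes that were also called higher in WAT in the controls without WAT control 2, a ranking added after the data were seen, the 15 largest log2 differences began with Hoxc10, Hoxa10, Fcamr, Marco and Hoxc9. The next 10, in order of size, were H2-T-ps (-6.43), Cd163l1 (-6.40), Mrgprg (-6.31), Cd209b (-6.29), Clec2i (-5.77), Samsn1 (-5.70), Dnase1l3 (-5.69), the T cell gene Cd6 (-5.58), Psrc1 (-5.58) and Dnajc6 (-5.56). H2-T-ps is a pseudogene of the major histocompatibility complex and may share reads with its relatives. Cd209b, a C-type lectin, was at 0.645, 0.844 and 1.35 CPM in BAT AKO and at 51.2, 77.0 and 95.4 CPM in WAT AKO. Its log2 difference was -3.60 in the controls and -3.42 without WAT control 2. Dnase1l3, a secreted nuclease, was at 1.00, 0.921 and 0.599 against 39.8, 29.1 and 62.7 CPM, with log2 differences of -4.32 in the controls and -3.23 without WAT control 2. Without WAT control 2 the difference of Cd6 was -2.47, that of Samsn1 -1.13 and that of H2-T-ps -1.58. Dnajc6, the auxilin gene known from clathrin uncoating in neurons, was at 0.215, 0 and 0.0749 CPM in BAT AKO and at 5.10, 5.50 and 4.38 CPM in WAT AKO. Its difference was -6.47 in the controls and -6.49 without WAT control 2, and that of Mrgprg, a receptor of the Mas-related family, was -4.87 and -5.21. Only genes whose BAT AKO and WAT AKO libraries did not overlap could enter this ranking, so the separation of these 10 genes follows from the selection.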
